A study of Homo sapiens with 21 samples.

Results

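The upper dose step of HCC- extracellular vesicles was measured in HCT-116, a line of epithelial-like cells from a human colorectal carcinoma. Cells given these vesicles at 1.2 mg/mL were set against cells given 0.24 mg/mL, a 5-fold step in dose. The libraries were chosen by their labelled vesicle source and dose, 3 at each dose, which is 6 of the 21 libraries of the series. Extracellular vesicles (EVs) are membrane-bound particles that cells release and that carry protein, RNA and lipid. These were isolated from human serum with a method called GlyExo-Capture, and the labels give HCC patients and healthy people as the serum sources. The labels mark the sources as HCC- and HCC+ without spelling out the signs, so both names are used here as labelled. Beside the step stand 4 further groups of 3 libraries, namely HCC+ EVs at 1.2 and at 0.24 mg/mL, HCC- EVs at 0.048 mg/mL and a blank. Every culture, the blank included, was grown in DMEM with serum depleted of exosomes. The labels do not give the time of exposure, what the mg/mL is a measure of, or the number of people behind a vesicle preparation. Nor do they state that the libraries of a group come from separate cultures, so p-values measure the spread between these libraries, which may be technical.

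Some background orders what follows. In dividing cells E2F transcription factors, held back by RB proteins until late G1 phase, switch on the genes for DNA replication, and a later wave of genes serves mitosis. p53 turns on genes that halt division or start cell death. ATF4 raises genes for amino acid synthesis and transport when amino acids are short or folding in the endoplasmic reticulum is stressed. SREBP2 drives cholesterol synthesis when sterols are low, and LXR receptors drive cholesterol export when oxysterols are high. NFAT5 turns on transporters and enzymes of organic osmolytes when the medium is hypertonic.

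Libraries held 54.9, 44.0 and 52.5 M counts at 1.2 mg/mL, against 43.4, 53.8 and 48.6 M at 0.24 mg/mL, within the 31.22 to 64.01 M of all 21. A first principal component with 63.86% of the variance of the 6 libraries put the 3 at 1.2 mg/mL on one side and the 3 at 0.24 mg/mL on the other. Values below are CPM, the share of a library's counts on a common scale, with scaling factors, log2 fold changes are 1.2 over 0.24 mg/mL with their standard errors, and a gene is called to have risen or fallen at a Benjamini-Hochberg adjusted p under 0.05. These are bulk samples, so fewer cells of a kind and less RNA per cell cannot be told apart. Epithelial markers were present throughout. The cell adhesion molecule EPCAM had 266, 213 and 249 CPM at 1.2 mg/mL, against 296, 273 and 287 CPM at 0.24 mg/mL, and the keratin KRT8 had 1771, 1963 and 1891 CPM at 1.2 mg/mL, against 2316, 2474 and 2124 CPM at 0.24 mg/mL. The keratin KRT19 had 735, 807 and 774 CPM at 1.2 mg/mL, against 738, 833 and 649.99 CPM at 0.24 mg/mL, the libraries of both doses overlapped, and it was not called (log2 fold change 0.06 ± 0.11). EPCAM, KRT8, KRT18 and CDH1 were called lower by small amounts, with log2 fold changes of -0.23, -0.30, -0.52 and -0.21. The EPCAM and CDH1 calls were lost when 1 library was left out, EPCAM at -0.13 without 1.2 mg/mL replicate 2 and CDH1 at -0.17 without 0.24 mg/mL replicate 3. With total counts in place of scaling factors both directions turned, to 0.027 for EPCAM and 0.049 for CDH1.

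The step moved about as many genes up as down, and the rises reached further. Of 19556 genes tested, 4671 rose, which is 23.9%, and 5468 fell, which is 28%, so that 51.8% were called in either direction by edgeR's quasi-likelihood test. The median rise among called genes was 1.71-fold and the median fall 1.45-fold. A log2 fold change of 1 or more in size was found for 1785 genes that rose and 770 that fell, and one of 2 or more for 612 and 55. For 29.1% of tested genes all libraries at 1.2 mg/mL lay above all at 0.24 mg/mL, and for 29% all lay below. The split of calls depends on the scaling. With library totals in place of the scaling factors 7742 rose and 3110 fell and the median log2 fold change of all genes shifted by 0.26 from its 0.040. With trends by GC content and length removed 6257 rose and 4580 fell, a shift of the median by 0.12. Small changes below are to be read against these shifts.

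DNA replication genes fell throughout. All 46 tested genes for replication licensing, forks and origins fell, with a median log2 fold change of -1.29, beside the 28% of all genes that fell and the median of 0.040 over all genes. The groups did not overlap for any of the 46. GINS2, a subunit of the GINS complex in the replicative helicase (ENSG00000131153, chromosome 16, positions 85676198 to 85690073), had 19.3, 21.9 and 20.2 CPM at 1.2 mg/mL, against 88.8, 82.4 and 81.3 CPM at 0.24 mg/mL. It fell, with a log2 fold change of -2.04 ± 0.074 and an adjusted p of 2.57e-19 by edgeR's quasi-likelihood test with Benjamini-Hochberg adjustment. MCM6, part of the ring that unwinds DNA, had 128, 124 and 116 CPM at 1.2 mg/mL, against 332, 308 and 304 CPM at 0.24 mg/mL, a log2 fold change of -1.36 ± 0.06. MCM3, from the same ring, had 202, 221 and 207 CPM at 1.2 mg/mL, against 512, 511 and 481 CPM at 0.24 mg/mL (-1.25 ± 0.054). PRIM1, the primase subunit that lays down the RNA start of each new strand, had 4.65, 4.37 and 4.64 CPM at 1.2 mg/mL, against 21.4, 17.7 and 22.9 CPM at 0.24 mg/mL (-2.18 ± 0.11). For each of these 4 genes every library at 1.2 mg/mL lay under every library at 0.24 mg/mL. Among the other members the loading factor MCM10 had a log2 fold change of -1.89 ± 0.075, the clamp loader subunit RFC5 -2.15 ± 0.096, the PCNA-associated factor PCLAF -2.18 ± 0.16, the helicase partner CDC45 -1.89 ± 0.08 and MCM4 -1.56 ± 0.056.

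E2F proteins bind short GC-rich letters near the start of many of these genes, so the promoters of 3 replication genes that fell are shown, picked because they hold such letters, from RefSeq on GRCh38.p14, from 250 bases before the start to 50 after it, read 5′ to 3′ on the gene's strand. The letters searched were TTTCCCGC, TTTCGCGC, TTTGCCGC and TTTGGCGC on both strands, with overlapping matches counted, and matches are in capitals. The windows are chr2:135876394-135876693, minus strand for MCM6, chr6:52284693-52284992, minus strand for MCM3 and chr16:85688905-85689204, minus strand for GINS2.
MCM6: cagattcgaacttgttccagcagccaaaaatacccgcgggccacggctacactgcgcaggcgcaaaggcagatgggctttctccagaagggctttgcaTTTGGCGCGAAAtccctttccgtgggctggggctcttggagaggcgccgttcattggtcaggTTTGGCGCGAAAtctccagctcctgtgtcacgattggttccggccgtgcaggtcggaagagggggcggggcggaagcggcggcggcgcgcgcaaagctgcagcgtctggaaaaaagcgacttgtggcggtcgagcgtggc
MCM3: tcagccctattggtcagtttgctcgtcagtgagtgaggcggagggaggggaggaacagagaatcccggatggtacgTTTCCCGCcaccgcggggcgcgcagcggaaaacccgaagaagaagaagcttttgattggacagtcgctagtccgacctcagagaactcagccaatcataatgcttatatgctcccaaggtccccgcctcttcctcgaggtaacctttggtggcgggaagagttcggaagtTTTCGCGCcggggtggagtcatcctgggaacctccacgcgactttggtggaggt
GINS2: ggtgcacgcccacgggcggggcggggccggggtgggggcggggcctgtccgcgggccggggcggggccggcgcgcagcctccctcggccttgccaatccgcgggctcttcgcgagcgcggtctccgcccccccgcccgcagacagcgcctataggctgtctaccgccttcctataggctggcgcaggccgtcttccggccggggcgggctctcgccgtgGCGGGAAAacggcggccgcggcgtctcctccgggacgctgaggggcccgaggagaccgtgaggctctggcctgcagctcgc
MCM6 holds 4 matches in 2 copies of a stretch of 12 letters, where a match on each strand overlaps, MCM3 holds 2 and GINS2 holds 1. The table of promoters held 39 of the 46 replication genes, and 17 of them, 43.6%, hold at least 1 match. The share was 5.12% for the 12607 promoters of tested genes and 3.33% for all 27305. Of the repair list 7 of 17 promoters hold a match, 41.2%, of the mitosis list 3 of 30, 10%, and of the deoxynucleotide list 1 of 8, 12.5%. Promoters of RRM2, DUT, MCM10, CDC45 and RRM1 hold none of these letters, and all 5 genes fell. A match is a description of letters and does not show binding.

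Genes of deoxynucleotide supply fell with those of replication. RRM2, the regulated subunit of ribonucleotide reductase that makes deoxynucleotides (ENSG00000171848, chromosome 2, positions 10120698 to 10211725), had 117, 103 and 100.3 CPM at 1.2 mg/mL, against 477, 442 and 424 CPM at 0.24 mg/mL. That is a log2 fold change of -2.07 ± 0.08 with an adjusted p of 6.89e-19 by edgeR's quasi-likelihood test with Benjamini-Hochberg adjustment. DUT, which destroys dUTP, had 20.8, 18.5 and 17.1 CPM at 1.2 mg/mL, against 86.2, 76.8 and 79.1 CPM at 0.24 mg/mL (-2.10 ± 0.079). RRM1, the partner of RRM2, fell by 1.59 on the log2 scale and thymidylate synthase TYMS fell by 1.36. Of 10 tested genes of this supply 8 fell and none rose. The 2 others were not called, namely RRM2B, the p53-regulated subunit, at -0.14 and SAMHD1, which degrades deoxynucleotides, at -0.080.

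**Figure D1:**
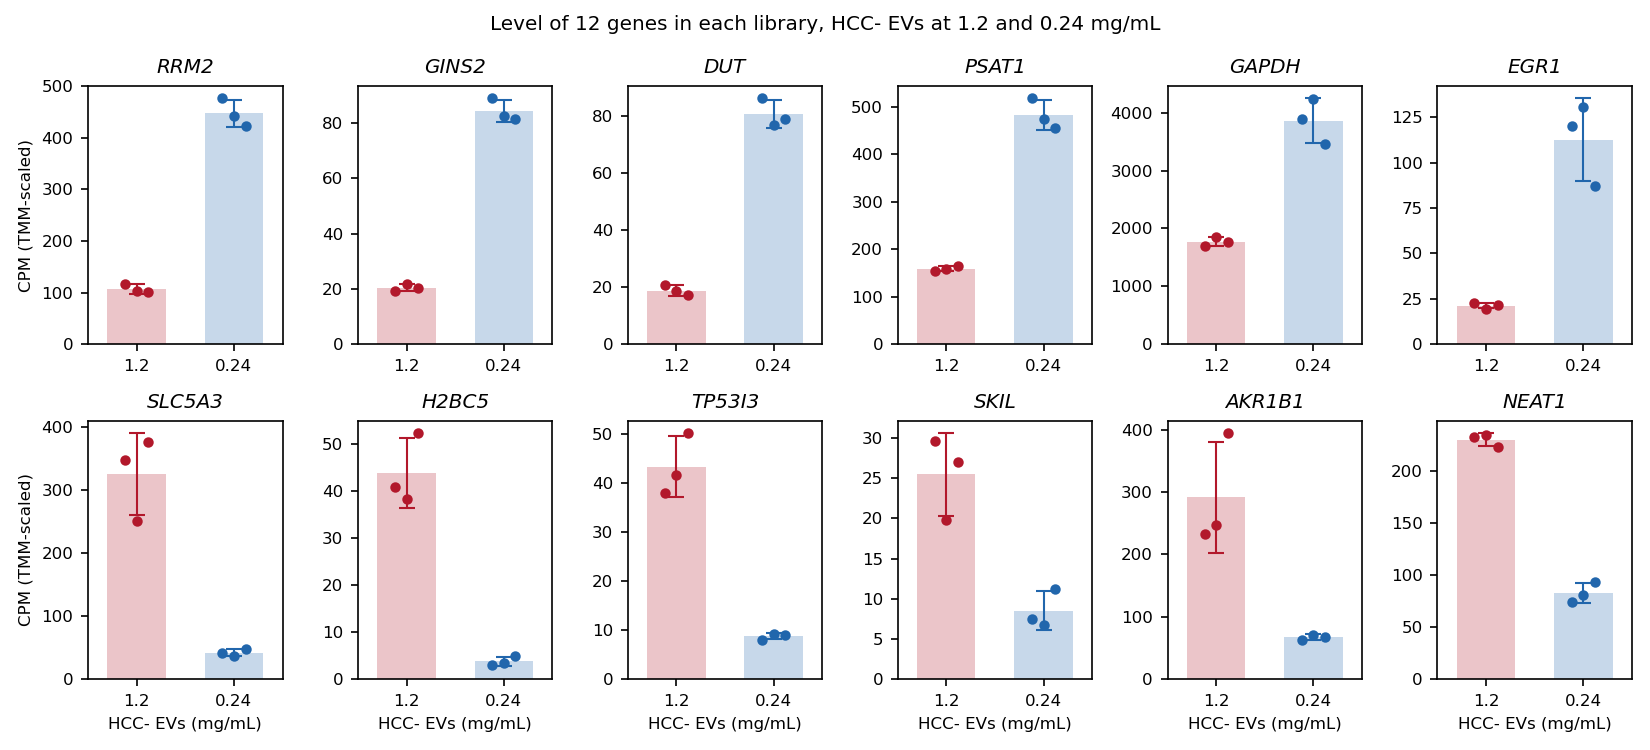
CPM of 12 genes in the 3 libraries at 1.2 mg/mL (left in each panel) and the 3 at 0.24 mg/mL of HCC- EVs, where each point is a library, each bar a group mean and each error bar its SD. RRM2, GINS2, DUT, PSAT1, GAPDH and EGR1 sit lower at 1.2 mg/mL and the other 6 genes sit higher, with no overlap between the doses in any panel.

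The regulators of S phase entry went the same way. Of 15 E2F and RB regulators 12 fell and 1 rose. E2F1, an activator, had 17.4, 19.9 and 16.2 CPM at 1.2 mg/mL, against 42.9, 45.6 and 41.7 CPM at 0.24 mg/mL, a log2 fold change of -1.29 ± 0.091. E2F8, a repressor that is itself an E2F target, fell by 1.77 on the log2 scale, and MYBL2, a partner of the MuvB complex, fell by 1.74. RBL1, an RB relative known as p107, had 9.20, 7.86 and 9.04 CPM at 1.2 mg/mL, against 25.1, 20.9 and 22.1 CPM at 0.24 mg/mL (-1.38 ± 0.11). The rise was TFDP2, an E2F partner, at 0.25 ± 0.07. E2F5 and RBL2 were not called, at -0.18 and -0.012.

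Among 15 G1 cyclins, kinases and inhibitors 9 fell and 3 rose, beside the 28% of all genes that fell and the 23.9% that rose. The 3 rises were inhibitors, and their number does not set the list apart from all genes. CCNE2, a cyclin of the G1 to S transition, had 3.56, 4.60 and 3.23 CPM at 1.2 mg/mL, against 11.8, 12.997 and 12.1 CPM at 0.24 mg/mL (-1.70 ± 0.13). The phosphatase CDC25A, which activates CDK2, fell by 1.38 on the log2 scale, CDK2 itself fell by 1.06 and CDK4 fell by 1.08. CDKN2B, the inhibitor p15 of CDK4 and CDK6, had 19.05, 19.1 and 24.5 CPM at 1.2 mg/mL, against 8.48, 8.89 and 10.3 CPM at 0.24 mg/mL, a log2 fold change of 1.18 ± 0.12. CDKN1A, the inhibitor p21, had 248, 254 and 278 CPM at 1.2 mg/mL, against 197, 207 and 209 CPM at 0.24 mg/mL (0.35 ± 0.058). CDKN1C, the inhibitor p57, rose by 0.77 ± 0.14 on the log2 scale. The inhibitors CDKN1B and CDKN2D and the kinase CDK6 were not called, at 0.018, -0.012 and 0.15.

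All 36 mitosis genes fell, with a median of -1.03, and their sizes varied widely. CCNA2, the cyclin of S and G2 phase, had 53.5, 50.1 and 47.6 CPM at 1.2 mg/mL, against 143, 134 and 137 CPM at 0.24 mg/mL (-1.45 ± 0.087). CDK1, the kinase that drives entry into mitosis, had 55.8, 51.3 and 49.7 CPM at 1.2 mg/mL, against 165, 148 and 168 CPM at 0.24 mg/mL (-1.62 ± 0.097). The condensin subunit NCAPG fell by 1.56, the spindle checkpoint protein MAD2L1 by 1.53 and the kinase AURKB by 1.25 on the log2 scale. At the other end CCNB1, the cyclin partner of CDK1, had 214, 211 and 186 CPM at 1.2 mg/mL, against 321, 321 and 322 CPM at 0.24 mg/mL (-0.66 ± 0.074). The kinesin KIF20A and the kinetochore protein CENPF fell by 0.28 and 0.39. CCNB1, KIF20A and CENPF were picked with their values known, to show the small end of this list. Under library totals 33 of the 36 were called lower, and KIF20A and CENPF were at -0.014 and -0.13. The call of KIF20A was lost in 2 alternatives and that of CENPF in 1.

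All 20 genes for recombination and cross-link repair fell, with a median of -1.25. EXO1, an exonuclease of end resection and mismatch repair, had 12.8, 14.6 and 10.3 CPM at 1.2 mg/mL, against 60.6, 56.5 and 53.4 CPM at 0.24 mg/mL, a log2 fold change of -2.18 ± 0.10. BRIP1, a helicase that works with BRCA1, had 14.2, 14.8 and 12.1 CPM at 1.2 mg/mL, against 41.8, 39.6 and 47.3 CPM at 0.24 mg/mL (-1.65 ± 0.09). FANCI, of the Fanconi anaemia pathway, fell by 1.27 on the log2 scale. Outside the lists, the largest falls among genes of at least 1 log2 CPM included CDCA7, a cell cycle gene that works with the chromatin remodeller HELLS, with 22.3, 17.9 and 17.1 CPM at 1.2 mg/mL, against 110.3, 100.05 and 85.6 CPM at 0.24 mg/mL (-2.37 ± 0.10), and EME1, an endonuclease subunit that cuts stalled forks (-2.19 ± 0.11).

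Histone genes of the replication-dependent clusters stood against this. Of 39 tested, 23 rose and 3 fell, with a median of 1.33, beside the 23.9% of all genes that rose. H2BC5, an H2B gene on chromosome 6, had 40.9, 38.3 and 52.2 CPM at 1.2 mg/mL, against 3.05, 3.42 and 4.83 CPM at 0.24 mg/mL, a log2 fold change of 3.54 ± 0.16 with an adjusted p of 3.07e-17 by edgeR's quasi-likelihood test with Benjamini-Hochberg adjustment. The linker histone H1-2 had 48.3, 50.04 and 61.8 CPM at 1.2 mg/mL, against 9.48, 7.73 and 8.96 CPM at 0.24 mg/mL (2.62 ± 0.13). The H2A gene H2AC6 had 31.2, 28.5 and 33.05 CPM at 1.2 mg/mL, against 5.35, 6.15 and 6.91 CPM at 0.24 mg/mL (2.33 ± 0.16). All 3 lay clear of the 0.24 mg/mL libraries. H2BC21 and H3C6 rose by 2.75 ± 0.23 and 2.82 ± 0.21, while H4C1, below 1 CPM in all 6 libraries, fell (-2.46 ± 0.63). The falls of H2AC14 and H2AC20 were 1.78 and 1.28 on the log2 scale. The libraries are of poly(A) RNA per the labels, most transcripts of these clustered genes normally end without a poly(A) tail, and near-identical copies can split reads, so these are levels of what the counting caught.

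Targets of p53 rose more often than they fell, with 16 of 28 higher and 2 lower and a median of 0.33. TP53I3, a quinone oxidoreductase, had 38.1, 41.6 and 50.2 CPM at 1.2 mg/mL, against 7.995, 9.16 and 8.96 CPM at 0.24 mg/mL, a log2 fold change of 2.31 ± 0.12. BBC3, the death-promoting protein PUMA, had 38.4, 39.9 and 38.8 CPM at 1.2 mg/mL, against 15.6, 15.96 and 14.3 CPM at 0.24 mg/mL (1.35 ± 0.10). TP53INP1, a p53-induced nuclear protein, rose by 1.51 ± 0.13, the kinase PLK2 by 0.82 ± 0.066 and the AKT antagonist PHLDA3 by 0.78 ± 0.098. The death receptor FAS and the repair gene XPC fell, FAS with 11.2, 10.9 and 11.9 CPM at 1.2 mg/mL, against 15.3, 14.1 and 14.9 CPM at 0.24 mg/mL (-0.38 ± 0.12). With library totals 24 of the 28 rose and 0 fell, and the fall of FAS was lost, at -0.12, as it was with GC and length trends removed, at -0.097. Among 19 apoptosis regulators 6 rose and 5 fell, beside the 23.9% of all genes that rose and the 28% that fell. BMF, a death-promoting BH3-only protein, had 9.68, 7.72 and 11.1 CPM at 1.2 mg/mL, against 1.06, 1.34 and 1.34 CPM at 0.24 mg/mL (2.92 ± 0.30), and BCL2L11, known as BIM, rose by 0.73 ± 0.097. BCL2, which protects from death, fell by 0.62 on the log2 scale. With library totals 11 of the 19 rose and 0 fell, so the fall of BCL2 does not hold there.

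Genes of amino acid synthesis and other ATF4 targets mostly fell. Of 31 genes 22 fell and 3 rose, with a median of -0.74. PSAT1, the aminotransferase of serine synthesis, had 155, 158 and 165 CPM at 1.2 mg/mL, against 518, 475 and 457 CPM at 0.24 mg/mL (-1.60 ± 0.06). PCK2, the mitochondrial PEP carboxykinase (ENSG00000100889, chromosome 14, positions 24094053 to 24110598), had 21.8, 25.2 and 23.8 CPM at 1.2 mg/mL, against 109.7, 113 and 84.996 CPM at 0.24 mg/mL (-2.12 ± 0.091). PHGDH, the first enzyme of serine synthesis, fell by 1.34 on the log2 scale, and the folate enzymes MTHFD2 and SHMT2 fell by 1.33 and 1.17. The cystine transporter SLC7A11 had 50.9, 33.2 and 53.8 CPM at 1.2 mg/mL, against 117, 101 and 112 CPM at 0.24 mg/mL (-1.26 ± 0.13). The stress protein NIBAN1 fell by 2.37. These serine and folate genes lay apart between the doses in every library. ASNS, asparagine synthetase, fell less, with a log2 fold change of -0.70 ± 0.13. CHAC1, which degrades glutathione and is an ATF4 target, had 26.2, 28.5 and 43.5 CPM at 1.2 mg/mL, against 34.2, 35.3 and 25.1 CPM at 0.24 mg/mL, the libraries overlapped, and it was not called (0.055 ± 0.18, adjusted p 0.82 by edgeR's quasi-likelihood test with Benjamini-Hochberg adjustment). DDIT3, the factor CHOP, had 6.20, 6.12 and 7.15 CPM at 1.2 mg/mL, against 11.5, 9.22 and 6.21 CPM at 0.24 mg/mL, also overlapping and not called (-0.46 ± 0.21). ASNS and DDIT3 were picked with their values known. The 3 rises were ATF3, a stress factor, with 36.8, 38.2 and 44.8 CPM at 1.2 mg/mL, against 24.2, 24.7 and 21.6 CPM at 0.24 mg/mL (0.77 ± 0.083), the glutamine transporter SLC38A2 at 1.05 ± 0.12 and cystathionine gamma-lyase CTH at 0.37. Letters of the joint C/EBP and ATF element, TGATGNAA on either strand, were in 6 of 25 promoters of this list, 24%, against 1.75% of promoters of tested genes and 3.67% of all. CHAC1 is one of the 6 and is shown because its response split by source, as given further on, with the window chr15:40953221-40953520, plus strand on GRCh38.p14 from RefSeq.
CHAC1: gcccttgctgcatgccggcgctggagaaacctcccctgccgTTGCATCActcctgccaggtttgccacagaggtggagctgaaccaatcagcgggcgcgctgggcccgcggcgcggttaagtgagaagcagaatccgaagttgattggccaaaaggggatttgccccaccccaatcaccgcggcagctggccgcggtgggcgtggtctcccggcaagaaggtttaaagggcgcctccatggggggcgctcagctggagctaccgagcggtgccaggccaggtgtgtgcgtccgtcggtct
The window of CHAC1 holds 1 match, in capitals, while those of PSAT1, PCK2 and PHGDH hold none.

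Mitochondrial energy genes fell widely and by less. Of 32 nuclear oxidative phosphorylation genes 28 fell and 0 rose, with a median of -0.61. ATP5MC1, the c subunit of the ATP synthase rotor, had 37.8, 42.9 and 34.7 CPM at 1.2 mg/mL, against 99.4, 106 and 92.3 CPM at 0.24 mg/mL (-1.37 ± 0.086). The cytochrome oxidase subunit COX8A fell by 1.31 on the log2 scale and the complex I subunit NDUFV1 by 1.18. Of 17 tricarboxylic acid cycle genes 15 fell and 1 rose. FH, fumarase, had 45.1, 44.4 and 42.5 CPM at 1.2 mg/mL, against 123, 111 and 112 CPM at 0.24 mg/mL (-1.39 ± 0.066), and SUCLG2, of succinyl-CoA ligase, fell by 1.47. The rise was OGDH, of the oxoglutarate dehydrogenase complex, with 111, 110.2 and 103 CPM at 1.2 mg/mL, against 88.9, 103 and 90.9 CPM at 0.24 mg/mL (0.20 ± 0.07). Its libraries overlapped and the call was lost without 0.24 mg/mL replicate 1 or 3 or 1.2 mg/mL replicate 1, at 0.15, 0.16 and 0.18. All 20 import and chaperone genes of the organelle fell, among them HSPD1, the chaperonin HSP60, with 982, 876 and 839 CPM at 1.2 mg/mL, against 2108, 1866 and 2032 CPM at 0.24 mg/mL (-1.15 ± 0.067) and HSPA9, mortalin (-0.74 ± 0.053). Of the 13 mRNAs that mitochondrial DNA encodes 6 fell and 0 rose, MT-CO2 with 5209, 5213 and 5169 CPM at 1.2 mg/mL, against 7341, 6373 and 6968 CPM at 0.24 mg/mL (-0.41 ± 0.069) and MT-CO3 by 0.32. With library totals 4 of the 13 rose and 3 fell, and with GC and length trends removed 5 rose and 1 fell, so the direction of this list turned.

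Transcripts of glycolysis fell as well, with 21 of 26 glycolysis and hypoxia genes lower and 1 higher and a median of -0.89. PDK1, a pyruvate dehydrogenase kinase, had 5.37, 4.80 and 4.51 CPM at 1.2 mg/mL, against 24.2, 26.1 and 22.5 CPM at 0.24 mg/mL (-2.31 ± 0.19). GAPDH had 1699, 1851 and 1769 CPM at 1.2 mg/mL, against 3892, 4234 and 3464 CPM at 0.24 mg/mL (-1.12 ± 0.077), and its many pseudogenes make the count uncertain. Lactate dehydrogenase LDHA and enolase ENO1 fell by 1.00 and 0.96 on the log2 scale. The rise was PFKFB3, which makes an activator of phosphofructokinase (0.23 ± 0.061). The 4 genes not called were SLC2A3, VEGFA, PKM and ADM, at 0.35, 0.22, 0.069 and -0.43.

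Genes for making and folding protein fell by smaller amounts. Of 28 ribosome biogenesis genes 23 fell and 0 rose, MRTO4, an assembly factor of the large subunit, with 65.5, 71.8 and 69.5 CPM at 1.2 mg/mL, against 147, 145 and 136 CPM at 0.24 mg/mL (-1.05 ± 0.056) and the nucleolar protein NOP56 by 0.85 on the log2 scale. Of 34 ribosomal protein genes 32 fell, with a median of -0.34, RPL22 by 0.77. With library totals the count is 9 of 34 with a median of -0.080, so this list rests on the scaling. Of 20 heat shock and cytosolic chaperone genes 17 fell and 1 rose. HSP90AA1, the inducible HSP90, had 2758, 2613 and 2299 CPM at 1.2 mg/mL, against 5341, 4695 and 5160.02 CPM at 0.24 mg/mL (-0.99 ± 0.071), and the chaperonin subunit CCT7 and the co-chaperone STIP1 fell by 0.60 and 0.66. The rise was HSPH1, an HSP110 chaperone, at 0.19 ± 0.061, lost at 0.14 without 0.24 mg/mL replicate 2. In the endoplasmic reticulum 11 of 18 chaperone genes fell and 1 rose, HSP90B1 with 471, 457 and 403 CPM at 1.2 mg/mL, against 939, 832 and 896 CPM at 0.24 mg/mL (-1.003 ± 0.074) and the J protein DNAJB9 at 0.46 ± 0.12. Of 26 proteasome genes 22 fell and 0 rose, with a median of -0.43, PSMB1 by 0.82 and PSMD4 by 0.70, and 14 of them fell with library totals.

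Lipid synthesis genes fell while cholesterol export genes rose. Of 25 cholesterol synthesis and uptake genes 21 fell and 1 rose, with a median of -0.62. FDPS, farnesyl diphosphate synthase, had 55.6, 62.6 and 50.2 CPM at 1.2 mg/mL, against 107, 123 and 111 CPM at 0.24 mg/mL (-1.02 ± 0.075). HMGCS1, which makes HMG-CoA, had 138, 126 and 98.9 CPM at 1.2 mg/mL, against 225, 232 and 233 CPM at 0.24 mg/mL (-0.93 ± 0.088), and HSD17B7 fell by 1.21 on the log2 scale. The rise was TM7SF2, a sterol reductase (0.54 ± 0.09). In fatty acid synthesis 9 of 13 fell and 0 rose, ACLY by 0.52 and ACSS2 by 0.81, both enzymes that make acetyl-CoA. In fatty acid oxidation and lipid droplets 13 of 16 fell and 1 rose, ETFB, of the electron transfer flavoprotein, by 1.52, with PDK4 as the rise (1.02 ± 0.18). Of 8 LXR targets 6 rose and 0 fell. ABCA1, the cholesterol exporter, had 4.29, 2.67 and 3.61 CPM at 1.2 mg/mL, against 0.624, 0.725 and 1.07 CPM at 0.24 mg/mL (2.12 ± 0.33). The exporter ABCG1 rose by 1.55 ± 0.21 and APOE, the lipid carrier protein, by 2.25 ± 0.30.

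Genes for organic osmolytes rose. Of 9 tonicity genes 8 rose and 1 fell, with a median of 1.05. SLC6A12, the betaine transporter (ENSG00000111181, chromosome 12, positions 190077 to 214570), had 8.62, 10.1 and 22.96 CPM at 1.2 mg/mL, against 0.0960, 0.344 and 0.294 CPM at 0.24 mg/mL, a log2 fold change of 5.77 ± 0.67 with an adjusted p of 1.64e-06 by edgeR's quasi-likelihood test with Benjamini-Hochberg adjustment. Replicate 3 at 1.2 mg/mL was more than 2-fold above the others. SLC5A3, the myo-inositol transporter, had 347, 251 and 376 CPM at 1.2 mg/mL, against 41.6, 35.9 and 47.1 CPM at 0.24 mg/mL (2.97 ± 0.22), and it shares its locus with MRPS6. AKR1B1, aldose reductase that makes sorbitol, had 233, 248 and 395 CPM at 1.2 mg/mL, against 62.5, 71.04 and 68.3 CPM at 0.24 mg/mL (2.12 ± 0.16). SGK1, a kinase induced by salt and steroids, had 13.7, 12.6 and 16.2 CPM at 1.2 mg/mL, against 4.23, 3.59 and 3.82 CPM at 0.24 mg/mL (1.87 ± 0.15). The taurine transporter SLC6A6 rose by 1.05 ± 0.087 and the sugar transporter SLC2A12 by 1.01 ± 0.19. NFAT5 itself had 117, 88.6 and 113 CPM at 1.2 mg/mL, against 88.8, 84.9 and 98.2 CPM at 0.24 mg/mL (0.23 ± 0.086). Its libraries overlapped and its call was lost on leaving out any single library of 4 of the 6, at 0.16 to 0.20, and it was 0.35 without 1.2 mg/mL replicate 2. SLC2A12 and NFAT5 were picked with their values known. The fall was HSPA4L, an HSP110 relative (-0.37 ± 0.095).

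Several signalling lists moved in part, to be read beside the 23.9% of all genes that rose and the 28% that fell. Of 14 TGF-beta and BMP targets 11 rose and 1 fell, with a median of 0.98. SKIL, a brake on SMAD signalling, had 29.7, 19.8 and 27.01 CPM at 1.2 mg/mL, against 7.51, 6.72 and 11.3 CPM at 0.24 mg/mL (1.59 ± 0.16), and the inhibitor SMAD7 had 8.85, 8.27 and 7.93 CPM at 1.2 mg/mL, against 3.46, 3.72 and 3.80 CPM at 0.24 mg/mL (1.19 ± 0.13). PMEPA1 rose by 1.90 ± 0.35, ID3 by 0.97 ± 0.10 and CCN2, a matrix protein, by 1.84 ± 0.39, and ID2 fell by 0.43 on the log2 scale. Of 11 YAP and TEAD targets 6 rose and 4 fell, CCN1 with 18.7, 21.1 and 26.9 CPM at 1.2 mg/mL, against 8.76, 9.70 and 8.46 CPM at 0.24 mg/mL (1.31 ± 0.13). Of 18 immediate early genes 8 rose and 3 fell. EGR1, which growth factors induce, had 22.4, 19.6 and 21.5 CPM at 1.2 mg/mL, against 120.1, 131 and 87.2 CPM at 0.24 mg/mL (-2.41 ± 0.22), and FOSL1 fell by 1.10. FOSB had 13.1, 12.4 and 16.5 CPM at 1.2 mg/mL, against 3.67, 3.97 and 3.59 CPM at 0.24 mg/mL (1.90 ± 0.15), with JUN and IER5 rising by 0.80 ± 0.11 and 1.04 ± 0.10. Of 13 ERK feedback genes 3 rose and 5 fell, the phosphatase DUSP6 by 0.74 and the inhibitor SPRY1 by 1.09. With library totals 7 ERK feedback genes rose and 3 fell, so the balance of that list turned, while 13 immediate early genes rose and 2 fell and 7 YAP and TEAD targets rose and 1 fell.

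Of 12 NF-kB targets 4 rose and 0 fell. Over all tested genes 23.9% rose and 28% fell, the shares to set beside this list and the next ones. NFKBIA, the inhibitor IkB-alpha, had 57.9, 56.9 and 80.6 CPM at 1.2 mg/mL, against 21.1, 20.4 and 22.7 CPM at 0.24 mg/mL (1.61 ± 0.17), and TNFAIP3, known as A20, rose by 0.85 ± 0.16. The other rises were TNFAIP2 and the adhesion molecule ICAM1, at 0.66 and 0.32. The chemokines CXCL1, CXCL2, CXCL3 and CXCL8 were not called. Of 31 interferon and antigen presentation genes 12 rose and 5 fell, IRF7 by 1.71 ± 0.19 and IFIT2 by 1.84 ± 0.28, while MX1, an antiviral GTPase, had 0.172, 0.312 and 0.148 CPM at 1.2 mg/mL, against 0.720, 0.573 and 0.651 CPM at 0.24 mg/mL (-1.62 ± 0.46) and the peptide transporter TAP2 fell by 1.24. Of 10 Wnt targets 4 rose and 2 fell, AXIN2 by 0.59 ± 0.092 and TCF7 by -0.86 ± 0.10.

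Of 22 NRF2 and metal response genes 6 rose and 9 fell, beside the 23.9% of all genes that rose and the 28% that fell. With library totals 8 of the 22 rose and 7 fell. Among the rises were aldo-keto reductases, AKR1B10 with 4.20, 4.29 and 5.73 CPM at 1.2 mg/mL, against 0.360, 0.496 and 0.462 CPM at 0.24 mg/mL (3.41 ± 0.33) and AKR1C3 with 8.87, 8.46 and 9.47 CPM at 1.2 mg/mL, against 0.936, 1.09 and 1.34 CPM at 0.24 mg/mL (2.99 ± 0.22). AKR1C genes are near-copies, so their reads may be shared. NQO1, the classic NRF2 target, had 216, 232 and 202 CPM at 1.2 mg/mL, against 499, 487 and 482 CPM at 0.24 mg/mL (-1.18 ± 0.057). Metallothionein MT2A, which binds zinc and copper, had 98.8, 93.5 and 122 CPM at 1.2 mg/mL, against 268, 271 and 194 CPM at 0.24 mg/mL (-1.22 ± 0.18), and MT1E fell by 1.33 on the log2 scale, with the same caution on copies.

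The remaining lists had calls both ways, beside the 23.9% of all genes that rose and the 28% that fell. Counts near these shares do not set a list apart from all genes. Of 24 lysosome and autophagy genes 11 rose and 4 fell, the autophagy kinase ULK1 by 1.22 ± 0.095 and GABARAPL1 by 0.79 ± 0.081. Of 20 epithelial and mesenchymal genes 7 rose and 9 fell, the tight junction gene CLDN4 with 282, 290.1 and 406 CPM at 1.2 mg/mL, against 114, 132 and 137 CPM at 0.24 mg/mL (1.35 ± 0.12), the splicing factor ESRP1 by -0.82 ± 0.066, and SNAI2, below 1 CPM in all 6 libraries, by 1.84 ± 0.51. Of 16 growth factor receptor and ligand genes 5 rose and 4 fell, the adaptor IRS2 by 0.97 ± 0.13 and the receptor INSR by -0.46 ± 0.071. Of 23 genes for vesicle formation and uptake 6 rose and 10 fell, and of 17 KLF and colon differentiation genes 6 rose and 4 fell. With library totals the vesicle list turned to 11 rises and 5 falls and the epithelial and mesenchymal list to 9 rises and 5 falls. The same scaling gave 10 rises and 2 falls in the receptor list, 8 and 1 in the KLF list, and 18 and 3 in the lysosome list. The KLF list had 2 to 3 rises without 0.24 mg/mL replicate 1, without 0.24 mg/mL replicate 3 or without 1.2 mg/mL replicate 3.

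Genes outside the lists also rose. ANK1, an ankyrin that links membrane proteins to the spectrin skeleton, had 18.2, 18.1 and 25.5 CPM at 1.2 mg/mL, against 0.624, 1.20 and 3.15 CPM at 0.24 mg/mL (3.62 ± 0.55). AQP3, a channel for water and glycerol, had 80.4, 85.8 and 128 CPM at 1.2 mg/mL, against 11.6, 13.4 and 13.9 CPM at 0.24 mg/mL (2.92 ± 0.22). CYP4F3, which inactivates leukotriene B4 and has near-copies in its cluster, had 11.5, 11.02 and 13.5 CPM at 1.2 mg/mL, against 1.25, 1.60 and 1.49 CPM at 0.24 mg/mL (3.05 ± 0.19). LURAP1L and the dynein heavy chain DNAH10 rose by 3.05 ± 0.25 and 2.71 ± 0.18. By absolute CPM, which is not per length and so does not rank genes by molecules, the elongation factor EEF1A1 rose most among called genes whose libraries did not overlap, with 14449, 14922 and 15626 CPM at 1.2 mg/mL, against 12582, 12389.7 and 12325 CPM at 0.24 mg/mL (0.27 ± 0.049), and its pseudogenes make it uncertain. POLR2A, the catalytic subunit of RNA polymerase II, had 807, 833 and 845 CPM at 1.2 mg/mL, against 345, 385 and 365 CPM at 0.24 mg/mL (1.18 ± 0.07). SOX4, FAT1 and TRIB1 rose by 1.24 ± 0.095, 0.70 ± 0.054 and 0.997 ± 0.056. Cytoplasmic actin ACTG1 had 2973, 3071 and 2871 CPM at 1.2 mg/mL, against 7101, 7437 and 6094 CPM at 0.24 mg/mL (-1.21 ± 0.074) and HSP90AB1 fell by 0.62 on the log2 scale.

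Some genes were near 0 at 0.24 mg/mL. AMPD1, AMP deaminase of muscle, had 178 counts over the libraries at 1.2 mg/mL and 0 counts over those at 0.24 mg/mL. That is 57.1-fold when set against a floor of 3 counts over the group, and the exact 95% interval of its ratio starts at 46.0. FNDC7 had 201 and 2 counts, a ratio by library totals of 96.8 with an exact 95% interval of 26.4 to 805, and TDRD10 had 161 and 2 counts, a ratio of 77.5 (21.1 to 646). These intervals cover counting error only. All 3 stayed under 2 CPM at the higher dose.

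The same dose step with HCC+ EVs moved fewer genes, and most of its calls lay among those of the HCC- step. With HCC+ 2681 rose, 13.7%, and 3023 fell, 15.5%, together 29.2%. Genes that rose with both numbered 1873, which is 40.1% of the HCC- rises and 69.9% of the HCC+ rises, and genes that fell with both numbered 2576, which is 47.1% of the HCC- falls and 85.2% of the HCC+ falls. The difference between the steps was tested in the same model. It was positive for 1225 genes, 6.26%, and negative for 2947, 15.1%, together 21.3%. Of these 4172 genes 2742 had estimates of the same sign with both sources that were larger in size with HCC-, 123 had larger ones with HCC+, and 1307 had estimates of opposite sign, called or not. Over all genes 31 were called higher with HCC- and lower with HCC+, and 82 lower with HCC- and higher with HCC+. The balance depends on the scaling, with 2369 positive and 1440 negative by library totals, and 2431 and 2596 with GC and length trends removed. The HCC+ step itself had 4072 rises and 1794 falls by library totals.

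**Figure D2:**
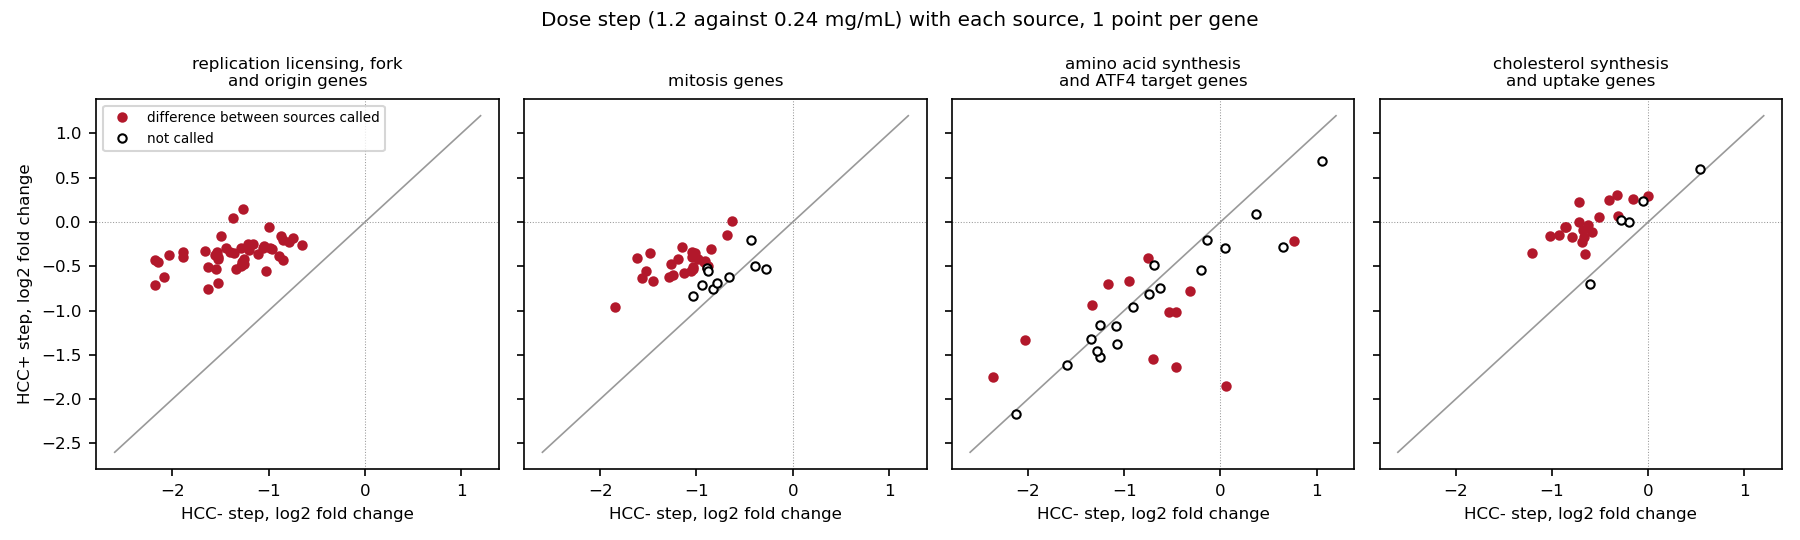
Log2 fold change of 1.2 over 0.24 mg/mL with HCC- EVs (horizontal) and with HCC+ EVs (vertical) for the tested genes of 4 lists, 1 point per gene, filled where the difference between sources was called, with the line of equal steps. All 46 replication genes are filled and lie to the left of the line, 26 of 36 mitosis genes are filled, the ATF4 list spreads to both sides, and 20 of 25 cholesterol genes are filled, all of them left of the line.

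Replication genes differed between the sources throughout. All 46 of that list had a more negative step with HCC- than with HCC+, beside the 15.1% of all genes called so, and 38 of the 46 fell with HCC+ as well. RRM2 had a mean of 321 ± 44.1 CPM at 1.2 mg/mL of HCC+ and 449 ± 17.2 CPM at 0.24 mg/mL (SD, n = 3 each), a step of -0.48 ± 0.076, and the difference of the steps was -1.58 ± 0.11, with an adjusted p of 8.62e-12 by edgeR's quasi-likelihood test with Benjamini-Hochberg adjustment. The difference was -1.92 ± 0.14 for EXO1, -1.66 ± 0.10 for GINS2 and -1.52 ± 0.18 for CCNE2. E2F1 was not called with HCC+ (0.23 ± 0.088), and its difference was -1.51 ± 0.13. All 10 deoxynucleotide genes and 19 of 20 repair genes also had a more negative step with HCC-, and RRM2B, not called with HCC-, rose with HCC+ by 0.40. Mitosis genes differed less, with 26 of 36. CCNB1, KIF20A and CENPF had differences of -0.043 ± 0.10, 0.26 ± 0.11 and 0.11 ± 0.10, none of them called, on steps of -0.62, -0.53 and -0.50 with HCC+.

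The serine synthesis genes PSAT1 and PHGDH and the carboxykinase gene PCK2 fell with both sources, and no difference between the sources was called for them. PSAT1 fell by 1.60 with HCC- and 1.61 with HCC+ on the log2 scale, and the difference was 0.011 ± 0.083. PHGDH and PCK2 had differences of -0.023 ± 0.083 and 0.04 ± 0.13. Other members differed in either direction. CHAC1 fell to 9.90 ± 2.49 CPM at 1.2 mg/mL of HCC+, against 35.7 ± 1.35 CPM at 0.24 mg/mL (SD, n = 3 each), a step of -1.86 ± 0.19, and the difference was 1.91 ± 0.26 (adjusted p 2.95e-05 by edgeR's quasi-likelihood test with Benjamini-Hochberg adjustment). DDIT3 and ASNS differed by 1.17 ± 0.31 and 0.84 ± 0.19, and ATF3, which was not called with HCC+ (-0.21), by 0.98 ± 0.12, while NIBAN1 differed by -0.62 ± 0.18. Over the ATF4 list 27 of 31 fell and 1 rose with HCC+, beside 15.5% and 13.7% of all genes. The difference was positive for 7 and negative for 6, beside 6.26% and 15.1% of all genes, so the negative count is near its share.

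Cholesterol genes mostly fell with HCC- and went both ways with HCC+. With HCC+ 7 of 25 rose, beside 13.7% of all genes, and 4 fell, beside 15.5%, and the difference was negative for 20 of 25 and positive for 0. Over all genes the difference was negative for 15.1% and positive for 6.26%, the shares to set beside this list and the next ones. FDPS had a step of -0.16 with HCC+, not called, and a difference of -0.86 ± 0.10, and HMGCS1 a difference of -0.78 ± 0.12. In fatty acid synthesis the difference was negative for 9 of 13, -0.60 ± 0.082 for ACLY. YAP and immediate early genes showed it in the other direction. CCN1 was not called with HCC+ (-0.12) and differed by 1.42 ± 0.18, FOSB by 1.58 ± 0.22 and JUN by 0.99 ± 0.16, with the difference positive for 6 and negative for 0 of 11 YAP targets, and positive for 7 and negative for 1 of 18 immediate early genes. Of the p53 list 22 of 28 rose with HCC+, and the difference was positive for 3 and negative for 4, the negative count being near its share over all genes. TP53I3 differed by 1.38 ± 0.17, while TP53INP1, at -0.082 ± 0.19, was not called. Among aldo-keto reductases AKR1B10 differed by 2.51 ± 0.45 and AKR1C3 was not called (0.33 ± 0.32). AKR1B1 was not called with HCC+ (0.39) and differed by 1.73 ± 0.22, and SLC5A3 by 1.06 ± 0.29. SLC6A12 rose with HCC+ as well (3.04 ± 0.79), and its difference, 2.73 ± 1.22, was not called. Synaptophysin SYP had 4.12, 3.47 and 4.38 CPM at 1.2 mg/mL, against 1.97, 1.18 and 1.05 CPM at 0.24 mg/mL with HCC-, was not called with HCC+ (-0.28) and differed by 1.80 ± 0.45.

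**Figure D3:**
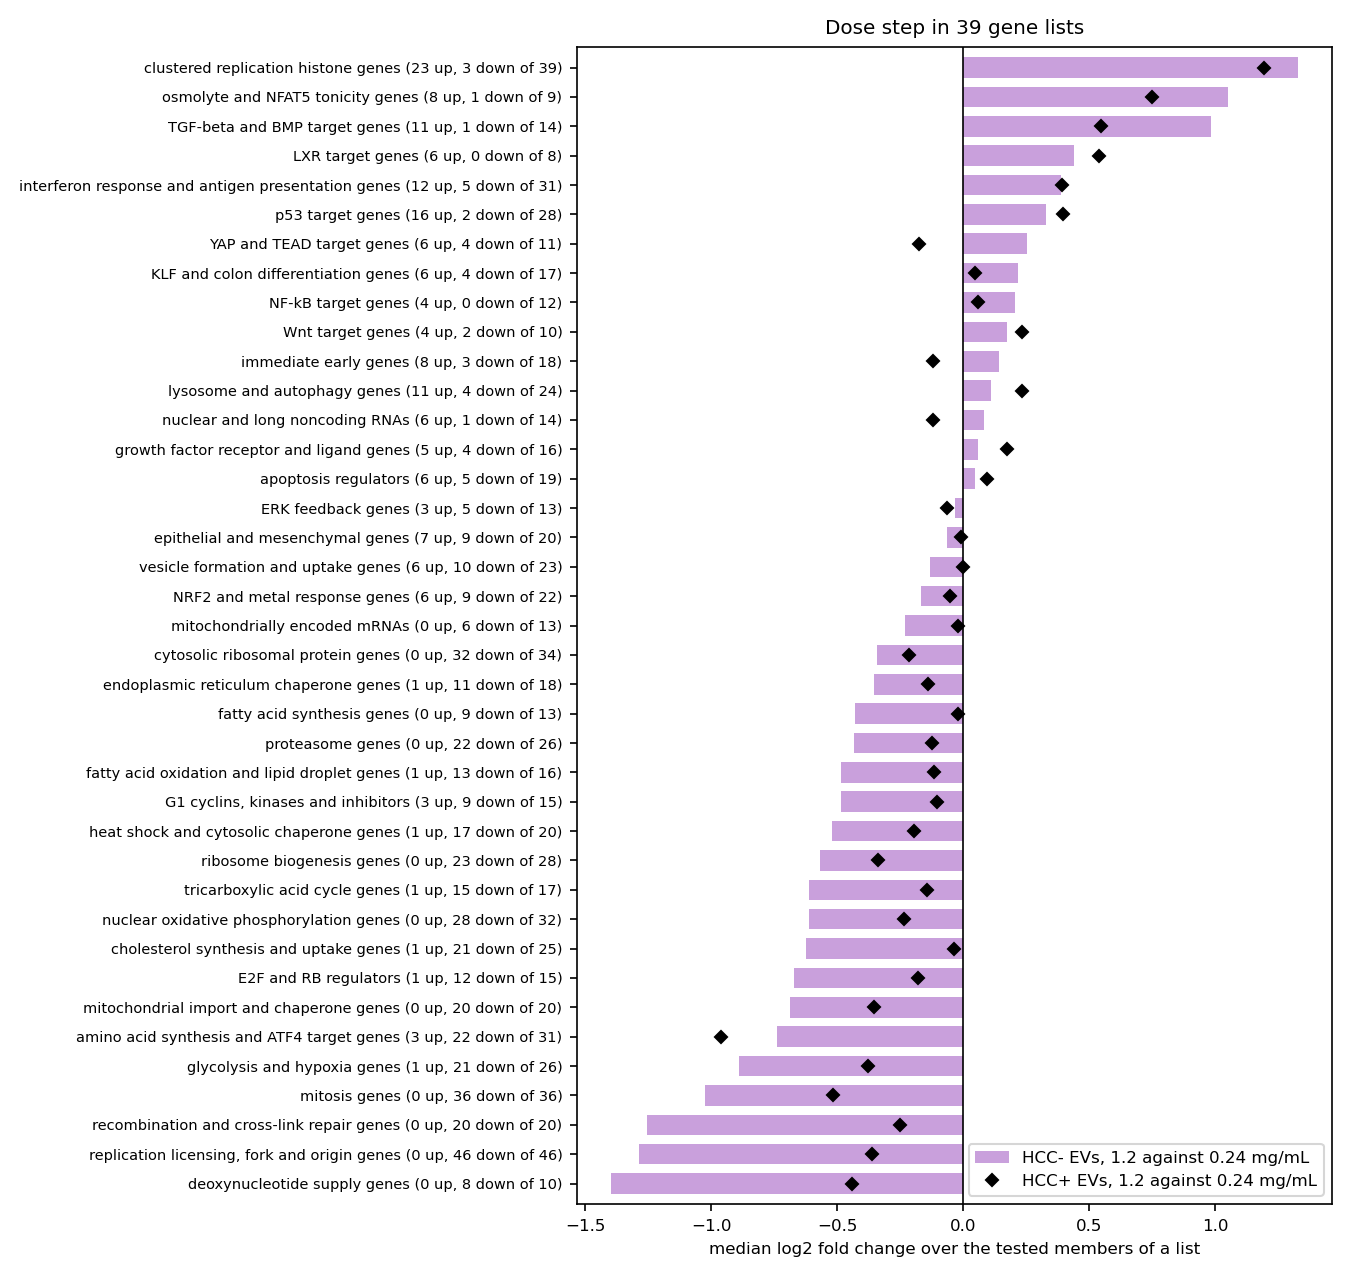
Median log2 fold change of 1.2 over 0.24 mg/mL over the tested genes of each of 39 lists, as bars for HCC- EVs and diamonds for HCC+ EVs, with the genes called in the HCC- step in each label. Replication has medians of -1.29 with HCC- and -0.36 with HCC+, the ATF4 list -0.74 and -0.96, and tonicity 1.05 and 0.75.

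The lower step of the same vesicles, 0.24 against 0.048 mg/mL, is also 5-fold and moved far fewer genes. At that step 754 genes rose, 3.86%, and 950 fell, 4.86%, together 8.71%, and by library totals 1265 rose and 657 fell. This count rests on single libraries, since without 0.048 mg/mL replicate 1 or 0.24 mg/mL replicate 3 it was 2 genes, and without 0.24 mg/mL replicate 2 it was 3124. Both steps use the 0.24 mg/mL libraries, so their values are given side by side. The difference of the upper and the lower step was positive for 2416 genes, 12.4%, and negative for 3996, 20.4%, together 32.8%, with 4133 and 2309 by library totals and 2962 and 3177 with GC and length trends removed. RRM2 averaged 464 ± 29.8 CPM in the blank, 447 ± 30.8 at 0.048, 447 ± 26.8 at 0.24 and 107 ± 9.23 at 1.2 mg/mL (SD, n = 3 each). PSAT1 averaged 529 ± 22.6, 486 ± 30.6, 483 ± 31.6 and 159.6 ± 5.18 CPM in the same order, and SLC5A3 40.1 ± 8.22, 30.3 ± 1.33, 41.5 ± 5.60 and 325 ± 65.3 CPM. For these 3 genes the HCC- libraries at 1.2 mg/mL stood apart from those of the lower HCC- doses and the blank. The difference of the upper and the lower step was called negative for all 46 replication genes, and in the lower step itself 7 of them fell, 0 rose and the median was 0.036. Some genes were picked for naming because they were called in the same direction at both steps, so they do not show how common this was. PCK2 and COX8A had lower steps of -0.41 ± 0.086 and -0.40 ± 0.085, and H2AC6 and SLC38A2 of 0.87 ± 0.18 and 0.41 ± 0.12. MT2A averaged 311 ± 63.6 CPM in the blank, 409 ± 76.3 at 0.048, 244 ± 43.5 at 0.24 and 105 ± 15.1 at 1.2 mg/mL, with a lower step of -0.74 ± 0.18. MT1E had a lower step of -0.58 ± 0.15. HPGD, which inactivates prostaglandins, had 0.355 ± 0.0896, 0.230 ± 0.143, 0.717 ± 0.334 and 1.99 ± 0.787 CPM and rose at both, by 1.58 ± 0.44 and 1.48 ± 0.37.

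**Figure D4:**
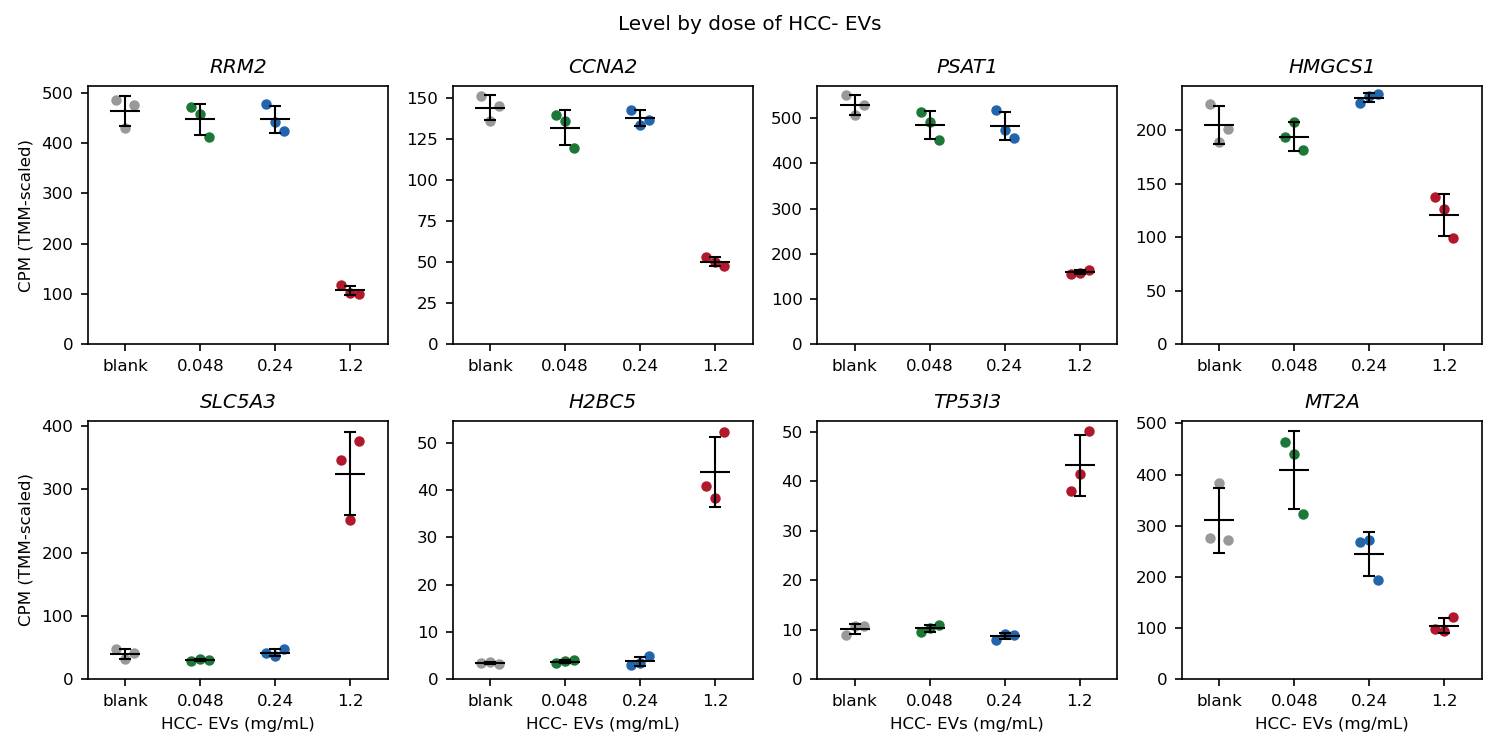
CPM of 8 genes in the blank and at 0.048, 0.24 and 1.2 mg/mL of HCC- EVs, where each point is a library and each black mark a group mean with its SD. RRM2 averages 464, 447, 447 and 107 CPM from left to right, and MT2A is lower at 0.24 than at 0.048 mg/mL and lower again at 1.2 mg/mL.

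Transcripts of other cell types were at low levels, and some moved with the dose. The summed level of 10 leukocyte markers was 5.09 to 6.96 CPM at 1.2 mg/mL and 1.13 to 2.50 CPM at 0.24 mg/mL, with S100A8, S100A9, FCGR3A and CSF3R at 0 in all 6 libraries. LYZ had 0.658, 0.761 and 0.738 CPM at 1.2 mg/mL, against 0.0720, 0.0763 and 0.0420 CPM at 0.24 mg/mL (3.45 ± 0.82), and CD14 and HLA-DRA rose by 2.59 ± 0.51 and 1.17 ± 0.29. Only these 3 of the 10 passed the filter on low counts, which keeps a gene that is high in 1 group alone. Their rises therefore do not speak for the list. Among the untested, PTPRC had 8 and 0 counts over the libraries at 1.2 and at 0.24 mg/mL, MS4A1 3 and 0, and CD3E 0 and 2. The 5 endothelial markers summed to 5.95 to 8.02 CPM, against 1.45 to 1.70 CPM at 0.24 mg/mL. PECAM1 had 2.99, 3.63 and 5.10 CPM at 1.2 mg/mL, against 0, 0.344 and 0.231 CPM at 0.24 mg/mL and VWF had 2.62, 2.98 and 2.71 CPM at 1.2 mg/mL, against 0.912, 0.725 and 0.777 CPM at 0.24 mg/mL. KDR had 20 and 37 counts over the libraries at 1.2 and at 0.24 mg/mL and CLDN5 21 and 38, and neither was called. The 6 fibroblast markers summed to 29.2 to 35.0 CPM, against 15.6 to 16.6 CPM, mostly COL1A1 (0.99 ± 0.11), with COL1A2 and LUM at 0. The 7 platelet markers summed to 13.3 to 16.4 CPM, against 23.3 to 28.8 CPM, with PPBP and PF4 at 0 and NRGN, which holds most of the sum, lower (-1.07 ± 0.10). ITGA2B, with 279 counts over the libraries at 1.2 mg/mL and 174 over those at 0.24 mg/mL, and TUBB1, with 125 and 81, were not called, and the median over the 4 tested platelet markers was -0.016. The 9 hepatocyte markers summed to 2.57 to 3.46 CPM, against 3.04 to 4.45 CPM, with APOB at 0 and TF lower (-1.999 ± 0.55). APOA1 had 40 and 2 counts over the libraries at 1.2 and at 0.24 mg/mL and HP 24 and 0, and neither passed the filter on low counts. The 7 erythroid markers summed to 0.371 to 1.00 CPM, against 0.144 to 0.420 CPM, and the rise of SLC4A1 (2.44 ± 0.88) was lost on leaving out any single library of 5 of the 6. The 7 colorectal epithelial markers summed to 3263 to 3534 CPM, against 3744 to 4349 CPM. Among 14 nuclear and long noncoding RNAs 6 rose and 1 fell, beside the 23.9% of all genes that rose and the 28% that fell. Their median was 0.085, and 4 to 6 rose when 1 library was left out. Among the rises were NEAT1 with 233, 234 and 223 CPM at 1.2 mg/mL, against 74.05, 80.6 and 93.4 CPM at 0.24 mg/mL (1.47 ± 0.088) and KCNQ1OT1 with 7.82, 9.28 and 8.20 CPM at 1.2 mg/mL, against 2.64, 3.53 and 4.43 CPM at 0.24 mg/mL (1.25 ± 0.19). The part of these transcripts in the dose step was not tested.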

How the data were processed

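Poly(A) RNA of HCT-116 cells was sequenced, with libraries made with NEBNext Ultra II after RNeasy isolation, per the labels' protocols. The authors deposited a table of raw counts per gene for 65065 Ensembl genes, and its gene length column is an annotation value, not a measurement. Per the submitters' processing notes the tools were cutadapt 3.4, HISAT2 2.2.1 and featureCounts 2.0.1 with GRCh38. Not given in the sources used here are the release of the annotation and how strand and multiply mapped reads were handled.

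All 21 libraries, 3 in each of 7 groups, entered edgeR 4.0.16 in R 4.3.3 with TMM factors, filterByExpr by group, a robust fit and two-sided quasi-likelihood F tests, with 14 residual degrees of freedom. This kept 19556 genes with 99.96% of the counts. p-values were Benjamini-Hochberg adjusted over all tested genes and called under 0.05. The standard error is the size of the log2 value divided by the square root of its F statistic. The common biological coefficient of variation was 0.0885. Total counts of 31.22 to 64.01 M per library set the precision, and intervals on ratios of counts (exact, 95%) cover counting error only, since reads are not independent molecules. The script was tested on simulated data. DESeq2 1.42.0 served as an alternative, and GC and length trends were estimated on 12251 genes. Figures used matplotlib 3.10.9 under Python 3.11.15.

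The genes, the 39 pathway lists and the 7 marker lists were chosen with earlier results of these data known, so counts of calls and medians describe a list and no set was tested. Named genes were, for the HCC- step, up to 12 rising and 12 falling by fold change and up to 8 each way by CPM difference, up to 6 called members each way by p from each list, called markers, up to 8 each way by the difference between sources, genes moving at both HCC- steps and genes near 0 at 0.24 mg/mL. The rule named 347 genes, of which the text gives the more telling part. Genes named as exceptions of a list were chosen after their values were seen, as were CCNB1, KIF20A, CENPF, ASNS, DDIT3, SLC2A12, NFAT5 and KRT19. Genes of the Y chromosome and XIST were left out of the named genes. Some other members of the lists are counted but not reported here by name.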

Additional observations from a re-analysis of the deposited data

Results flagged for a closer look

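The dose step of 1.2 against 0.24 mg/mL differed between HCC- and HCC+ EVs for 4172 of 19556 genes by the test of the difference itself in edgeR. The values below are the log2 step with HCC- minus the log2 step with HCC+, for the 117 genes named in the report that the test called. A negative value means a lower step with HCC-, a positive one a higher step.

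Among replication and deoxynucleotide genes the difference was -1.58 for RRM2, -1.56 for MCM10, -1.66 for GINS2, -1.01 for MCM6, -0.84 for MCM3 and -1.19 for MCM4. It was -1.47 for PRIM1, -1.74 for PCLAF, -1.69 for RFC5, -1.50 for CDC45, -0.99 for RRM1, -1.36 for DUT and -0.95 for TYMS. In the regulators of S phase entry it was -1.51 for E2F1, -1.44 for E2F8, -1.36 for MYBL2, -0.94 for RBL1, -1.52 for CCNE2, -1.19 for CDC25A, -0.92 for CDK2 and -0.59 for CDK4, and positive at 0.69 for CDKN2B. In mitosis and repair it was -1.21 for CDK1, -0.78 for CCNA2, -0.93 for NCAPG, -0.97 for MAD2L1, -0.65 for AURKB, -1.92 for EXO1, -1.52 for BRIP1 and -1.13 for FANCI, with -1.32 for CDCA7 and -1.30 for EME1. Histone genes differed by 1.18 for H1-2, 1.26 for H2BC5, 1.80 for H2BC21 and 0.81 for H3C6. The histone list also rose with HCC+, with 19 of 39 higher, beside 13.7% of all genes, 0 lower and a median of 1.195. The difference was positive for 5 of the 39 and negative for 0, beside 6.26% and 15.1% of all genes, and H2AC6 was not called (0.071 ± 0.23). Among p53 and cell death genes the values were 1.38 for TP53I3, 0.45 for BBC3, 0.27 for PLK2, -0.56 for FAS and 0.46 for BCL2L11.

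In the ATF4 list the difference was -0.62 for NIBAN1, -0.40 for MTHFD2, -0.46 for SHMT2, 0.84 for ASNS, 1.91 for CHAC1, 1.17 for DDIT3 and 0.98 for ATF3. Mitochondrial genes had -0.69 for ATP5MC1, -0.67 for COX8A, -0.57 for NDUFV1, -0.78 for SUCLG2, -0.92 for FH, -0.65 for HSPD1, -0.27 for HSPA9, -0.37 for MT-CO2 and -0.27 for MT-CO3. Genes of sugar use had -1.40 for PDK1, -0.76 for LDHA, -0.60 for GAPDH and -0.52 for ENO1. Ribosome, chaperone and proteasome genes had -0.37 for MRTO4, -0.38 for NOP56, -0.43 for RPL22, -0.56 for HSP90AA1, -0.31 for HSP90AB1, -0.59 for HSP90B1, -0.36 for CCT7, -0.29 for STIP1, -0.49 for PSMB1 and -0.27 for PSMD4. Lipid genes had -0.86 for FDPS, -0.85 for HSD17B7, -0.78 for HMGCS1, -0.60 for ACLY, -0.64 for ACSS2, -0.89 for ETFB and 1.36 for APOE. Tonicity genes had 1.06 for SLC5A3, 1.73 for AKR1B1, 0.70 for SGK1 and -0.38 for HSPA4L.

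In the signalling lists the difference was 0.95 for SKIL, 0.72 for SMAD7, 1.42 for CCN1, -0.39 for ID2, -0.45 for FOSL1, 1.58 for FOSB, 0.99 for JUN and 0.56 for IER5, with 0.67 for TNFAIP3, -0.36 for DUSP6 and -0.86 for TCF7. Interferon and NRF2 genes had 1.05 for IRF7, -2.21 for MX1, -0.92 for TAP2, 2.51 for AKR1B10 and -0.78 for NQO1. Lysosome, epithelial and receptor genes had 0.50 for ULK1, 0.50 for CLDN4, -0.61 for ESRP1, -0.29 for KRT18, -0.30 for CDH1, 0.61 for IRS2 and -0.65 for INSR. Among the remaining genes it was 1.60 for LURAP1L, 1.29 for CYP4F3, 1.86 for DNAH10, 0.42 for POLR2A, 0.62 for SOX4, 0.33 for FAT1, 0.54 for TRIB1 and -0.64 for ACTG1, with 1.80 for SYP, 0.65 for NEAT1, 0.81 for KCNQ1OT1 and -0.47 for NRGN.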

How the results depend on the processing

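The count of called genes in the HCC- step stayed within 1.5 times of its 10139 under every alternative run: other size factors, DESeq2, no filter on low counts, only the compared groups, library totals, and GC and length trends removed. It was 9030 to 9621 when 1 library was left out. The HCC+ step had 4169 to 5351 called genes, the difference between sources 3016 to 4211 and the difference of the HCC- steps 4751 to 6465 when 1 library was left out. The lower HCC- step, with 1704 called genes, moved most: 3095 with DESeq2, 3071 with only the compared groups, 90 with GC and length trends removed and 2 to 3124 with 1 library left out. Of 174 called genes named in the report 161 kept direction and call in every alternative. Directions turned for EPCAM, at 0.0013 with GC and length trends removed and 0.027 with library totals, and for CDH1, at 0.049 with library totals. Of the 117 named differences between sources none turned, and 115 of 2223 values under alternatives were no longer called. Those included 9 values for PLK2, 8 for H3C6 and 8 for PSMD4, whose differences thus depend on the setting. Same-numbered libraries of the doses did not deviate together, with correlations of 0.057, 0.115 and -0.003, so the numbers are not taken to pair libraries. With replicate number as a block the counts were 10161 for the HCC- step, 5740 for the HCC+ step, 4268 for the difference between sources, 2100 for the lower HCC- step and 6485 for the difference of the HCC- steps. The causes were not tested. Genes with a few counts per library are limited by depth, so ratios of counts with their intervals stand in for fitted folds there.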
